A study of Mus musculus with 12 samples.

Results

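Brown and beige fat genes were followed through the thymus of the young and adult mouse. The 9 genes are Ucp1, Cidea, Elovl3, Dio2, Ppargc1a, Prdm16, Ebf2, Adrb3 and Plin5, chosen by name as genes tied to brown and beige fat, though not all are particular to it, out of 22843 genes in the mRNA table. All 9 were found by their symbol, and all 9 passed the filter on low counts. The thymuses came from male C57BL/6 mice, a wild type inbred strain, at 2 weeks (2W), 6 weeks (6W) and 3 months (3M), with no treatment named in the labels. Each age has 2 libraries of ribosomal RNA-depleted, strand-specific RNA and 2 of small RNA, and the study's methods call them biological replicates without saying whether thymuses were pooled. What the study asked was which RNAs change while the thymus grows and then begins to shrink. The genes here bear on a narrower point, namely what kind of fat RNA the samples held at each age.

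White adipocytes store fat in a single large droplet, whereas brown and beige adipocytes hold many small droplets and many mitochondria and burn fat to make heat. In cold, noradrenaline reaches the β3 receptor (Adrb3), cAMP rises, lipolysis frees fatty acids, and the uncoupling protein of the inner mitochondrial membrane (Ucp1) lets protons pass without making ATP. Brown fat is laid down before birth and lies among other places around the great vessels of the chest close to the thymus, while beige cells arise within white fat. Prdm16 and Ebf2 are lineage regulators of thermogenic fat cells and do not tell brown from beige.

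Estimated counts per library ranged from 16519753 to 22553481, of which 0.699% to 1.20% came from transcripts without a gene symbol and were left out. The libraries were thymic in kind. The 12 thymocyte markers summed to between 15230 and 20595 counts per 1000000 (CPM) and the 9 thymic epithelial markers to between 1454 and 1852 CPM in every library. In 3M against 2W, 5 of the 12 thymocyte markers fell (Rag1, Cd4, Cd8a, Ptcra and Bcl11b), and of 9 fibroblast markers 4 rose and 2 fell (41.7% and 66.7% called, beside 11.0% of all genes). The 9 brown and beige fat genes together came to 22.1 CPM in 2W replicate 1, 64.0 in 2W replicate 2, 38.6 and 58.1 at 6W, and 131 and 83.3 at 3M. CPM here is the count scaled to the library size with trimmed mean (TMM) factors, and it serves to follow 1 gene across libraries. In these bulk samples, a change in the number of fat cells and a change in RNA per fat cell cannot be told apart.

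Ucp1, the protein that defines the thermogenic adipocyte, had the highest mean of the 9 at each age and was highest at 3M. In 2W replicate 1, Prdm16 had more CPM (9.23) than Ucp1. Ucp1 had 4.43 CPM in 2W replicate 1 and 34.4 in 2W replicate 2, 15.3 and 27.9 at 6W, and 66.6 and 48.1 at 3M. The counts behind these values were 70, 561, 315, 633, 1107 and 1073. Both 3M libraries lay above the other 4, while the 2W libraries spanned the 6W ones. The replicates at 2W stood 7.77-fold apart, and their counting intervals (95%, exact Poisson, counting error only) of 3.45 to 5.59 and 31.6 to 37.4 CPM do not meet. On the log2(CPM + 0.5) scale that gap was 2.82, and 26 of 14805 genes tested (0.176%) had one as large. Ucp1 at 3M was 2.94-fold above 2W (log2 fold change 1.56, SE 0.78, edgeR adjusted p = 0.253) and 2.65-fold above 6W (log2 fold change 1.40, SE 0.77, adjusted p = 0.444), and neither passed the test. With 2W replicate 2 left out, the log2 fold change from 2W to 3M was 3.69 (adjusted p = 0.0391), and with 2W replicate 1 left out it was 0.73 (adjusted p = 0.350). Between 2W and 6W the log2 fold change was 0.15 (SE 0.77, edgeR adjusted p = 0.929), and it turned to -0.67 without 2W replicate 1 and to -0.35 without 6W replicate 2.

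**Figure D1:**
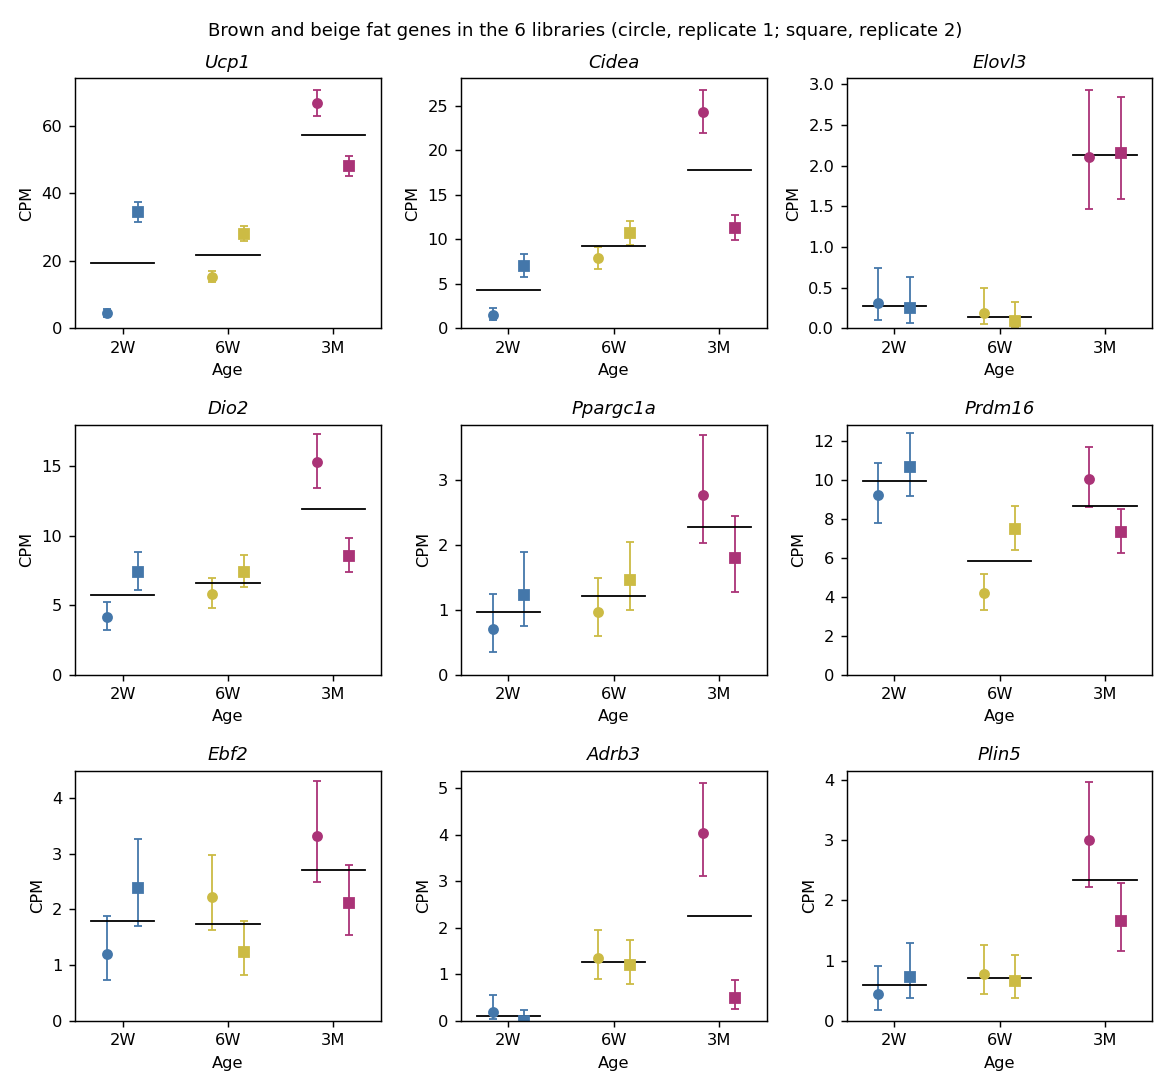
CPM of each of the 9 genes (y axes, linear from 0) by age (x axes). Circles are replicate 1 and squares replicate 2, the vertical bars are 95% exact Poisson counting intervals, and the black line is the mean of the 2 libraries. Ucp1 runs from 4.43 to 66.6 CPM with its 2W libraries far apart, and Elovl3 is at or under 0.316 CPM until 3M.

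Cidea and Plin5 act on the lipid droplet. Cidea, a droplet protein of brown fat that helps droplets fuse and grow, had 1.52 and 6.99 CPM at 2W, 7.85 and 10.7 at 6W, and 24.3 and 11.2 at 3M. The 3 ages did not overlap and stood in order, but the 2W libraries differed 4.61-fold and the 3M libraries 2.16-fold. The rise from 2W to 3M (4.15-fold, log2 fold change 2.05, SE 0.66) had an adjusted p of 0.101 in edgeR, and the log2 fold change was 1.34 without 2W replicate 1 and 3.53 without 2W replicate 2. From annotated transcripts alone the order was lost, since 2W replicate 2 had 113 counts and 6W replicate 1 had 94.2. Plin5, which ties droplets to mitochondria in tissues that burn fat, had 0.443 and 0.736 CPM at 2W, 0.775 and 0.662 at 6W, and 3.01 and 1.66 at 3M. The 2W and 6W libraries overlapped, and both 3M libraries lay above the other 4. The log2 fold change was 1.96 (SE 0.50, edgeR adjusted p = 0.0541) from 2W to 3M and 1.68 (SE 0.48, adjusted p = 0.246) from 6W to 3M.

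Elovl3, an enzyme that lengthens very long chain fatty acids and is induced in brown fat by cold, appeared at 3M. It had 0.316 and 0.245 CPM at 2W (5 and 4 counts), 0.194 and 0.0883 at 6W (4 and 2 counts), and 2.10 and 2.15 at 3M (35 and 48 counts). The 3M libraries lay close together, and no earlier library came near them. Elovl3 was the 1 gene of the 9 that passed an adjusted p of 0.05, in 3M against 2W (log2 fold change 2.90, SE 0.51, edgeR adjusted p = 0.0201). It passed the filter through its 3M libraries alone, so that a difference was a condition of its being tested. From the summed counts, the ratio of 3M to 2W was 7.61 (95% counting interval 3.82 to 17.2), and that of 3M to 6W was 15.4 (6.77 to 43.1, on 6 counts at 6W). The call was lost when 2W replicate 1 (adjusted p = 0.0941), 2W replicate 2 (0.107), 3M replicate 2 (0.0640), 6W replicate 1 (0.0527) or 6W replicate 2 (0.0513) was left out, while the log2 fold change stayed between 2.73 and 3.08 with each library left out. Elovl3 is also made by sebaceous glands and liver. The 9 genes of the sebaceous list summed to 6.32 and 7.30 CPM at 2W, 14.8 and 11.9 at 6W, and 9.68 and 10.6 at 3M, led by Krt10 (2.91 to 8.48 CPM), Elovl4 (1.14 to 2.41) and Awat2 (0.314 to 1.26). Krt10, a keratin, alone held 8.48 of the 14.8 CPM in 6W replicate 1 and 6.09 of the 10.6 in 3M replicate 2. The sum thus follows Krt10 in large part and is not a measure of sebaceous cells. None of the 5 tested passed in 3M against 2W (edgeR, 2 at an unadjusted p under 0.05, 0 by DESeq2). Their part in the Elovl3 level was not tested.

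Dio2, Adrb3 and Ppargc1a belong to the signal that turns heat production on. Dio2, the deiodinase that makes active thyroid hormone inside the brown adipocyte, had 4.11 and 7.36 CPM at 2W, 5.82 and 7.37 at 6W, and 15.3 and 8.51 at 3M. Ppargc1a, the coactivator that drives mitochondrial biogenesis, had 0.696 and 1.23 CPM at 2W, 0.969 and 1.46 at 6W, and 2.77 and 1.79 at 3M. Both genes were highest at 3M, where neither overlapped any earlier library. For Ppargc1a this rested on an assembled transcript in 3M replicate 2, since annotated transcripts there held 19.4 of 40 counts, fewer than in 2W replicate 2 (20) and 6W replicate 2 (33.0), and gave a log2 fold change from 2W to 3M of 0.91. From 2W to 3M, Dio2 was 2.06-fold higher (log2 fold change 1.05, SE 0.38, edgeR adjusted p = 0.132) and Ppargc1a 2.35-fold (log2 fold change 1.23, SE 0.47, edgeR adjusted p = 0.149). Adrb3, the receptor for noradrenaline on adipocytes, white ones included, had 3 counts and 0 counts at 2W, 28 and 27 at 6W, and 67 and 11 at 3M, or 0.190, 0, 1.36, 1.19, 4.03 and 0.493 CPM. The 2W libraries held at most the 3 counts that a count of 0 allows. Set against 3 counts in the smaller 2W library, mean Adrb3 was 6.72-fold higher at 6W and 11.9-fold higher at 3M (edgeR adjusted p = 0.226 and 0.0838). These folds are not strict lower bounds. The counting interval of 2W replicate 1 reached 0.554 CPM, and that of 3M replicate 2 ran from 0.246 to 0.882 CPM. The rise at 3M came from transcripts assembled by the authors, since annotated ones held 1.30 and 0 counts at 3M beside 3 and 0 at 2W. The 3M libraries differed 8.18-fold, so that the 6W values lay between them. Against 3 counts, the log2 value of 3.58 at 3M came down to 1.38 when 3M replicate 1 was left out. It came up to 4.41 when the other 3M library was. No 2W library reached the filter for Adrb3, which was tested through its 6W and 3M libraries, so that a difference from 2W was a condition of its being tested.

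Ucp1, Dio2 and Ppargc1a are classic genes of the cAMP response, and the 250 bases before the annotated start of each are shown for that reason. The sequences are from RefSeq on GRCm38.p6, each 5′ to 3′ on the strand of its gene, with capitals marking the half-site TGACG of the cAMP response element on either strand. Ucp1 lies on the plus strand at chr8:83290098-83290347, Dio2 on the minus strand at chr12:90739039-90739288 and Ppargc1a on the minus strand at chr5:51567726-51567975.
Ucp1: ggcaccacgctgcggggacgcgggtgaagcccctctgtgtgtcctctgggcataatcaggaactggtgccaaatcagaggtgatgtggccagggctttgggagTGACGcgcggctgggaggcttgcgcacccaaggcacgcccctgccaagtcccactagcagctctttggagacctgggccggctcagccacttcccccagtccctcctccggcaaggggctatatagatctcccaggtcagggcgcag
Dio2: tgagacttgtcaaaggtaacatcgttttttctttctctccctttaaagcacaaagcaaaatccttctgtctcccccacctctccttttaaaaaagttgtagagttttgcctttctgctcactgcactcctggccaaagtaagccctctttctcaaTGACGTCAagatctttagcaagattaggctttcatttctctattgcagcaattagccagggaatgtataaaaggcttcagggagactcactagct
Ppargc1a: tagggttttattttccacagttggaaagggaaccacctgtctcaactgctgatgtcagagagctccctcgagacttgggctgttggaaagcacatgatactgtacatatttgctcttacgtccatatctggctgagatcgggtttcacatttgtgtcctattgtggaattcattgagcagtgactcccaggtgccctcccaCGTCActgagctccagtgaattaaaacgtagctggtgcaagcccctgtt
The half-site stood 147 bases before the start in Ucp1 on the gene's strand and 49 bases before it in Ppargc1a on the opposite strand. Dio2 held the full palindrome TGACGTCA, which contains the half-site on both strands, from 95 to 88 bases before its start. Among 32851 promoter windows of this length, 17.8% held the half-site and 1.55% the palindrome. The windows of Prdm16 and Plin5, the other members with an entry, held no half-site. The nuclear receptor half-site AGGTCA, present in 14.0% of windows, was found in Ucp1 and Plin5, and the direct repeat AGGTCANAGGTCA, present in 0.0335%, in none of these 5 genes. Such matches describe the letters and are not measurements of binding. No entry was used for Cidea, Elovl3, Ebf2 and Adrb3.

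Prdm16 and Ebf2, the lineage regulators, overlapped between 2W and 3M. Prdm16, which commits precursors to the brown fate, had 9.23 and 10.7 CPM at 2W, 4.17 and 7.46 at 6W, and 10.04 and 7.30 at 3M. Both 2W libraries were above both 6W libraries (log2 fold change -0.77, SE 0.31, edgeR adjusted p = 0.251), and the 3M libraries overlapped both other ages (log2 fold change from 2W to 3M -0.20, SE 0.31, adjusted p = 0.721). These values rest on transcripts assembled by the authors, which held 92.6% of the Prdm16 counts. Without them the log2 fold changes turned to 2.23 in 6W against 2W, -0.43 in 3M against 6W and 1.80 in 3M against 2W. The first and last of these are set against 3 counts at 2W. Ebf2, which opens brown fat genes for transcription, had 1.20 and 2.39 CPM at 2W, 2.23 and 1.24 at 6W, and 3.31 and 2.11 at 3M, with overlap between all ages (3M against 2W log2 fold change 0.58, SE 0.49, edgeR adjusted p = 0.497). Their Pearson r with Ucp1, of log2(CPM + 0.5) over the 6 libraries, which share depth and age, was 0.20 and 0.70. It was 0.93 for Cidea, 0.91 for Dio2, 0.91 for Ppargc1a, 0.79 for Plin5, 0.60 for Elovl3 and 0.44 for Adrb3, so that Ebf2 lay among the other members.

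In edgeR's quasi-likelihood test, 0 of the 9 genes had an adjusted p under 0.05 in 6W against 2W, where 1.74% of all genes did, and 0 in 3M against 6W, where 0.00675% did. In 3M against 2W 1 of 9 did, beside 11.0% of all genes, so that the share among the 9 (11.1%) was that of the background. At an unadjusted p under 0.05 there were 2 in 6W against 2W (Adrb3 and Prdm16, beside 18.9% of all genes), 2 in 3M against 6W (Elovl3 and Plin5, beside 14.3%) and 6 in 3M against 2W (beside 27.3%), and DESeq2 called 0, 0 and 4 (Adrb3, Cidea, Elovl3 and Plin5, beside 14.9% of all genes in 3M against 2W). The study called RNAs at an unadjusted p under 0.05 and a change of over 1 on the log2 scale. By that rule 1 of 9 was higher in 6W against 2W (Adrb3, beside 4.48% of all genes), 2 in 3M against 6W (1.29%) and 6 in 3M against 2W (7.67%), and none was lower. Those 6 were Adrb3, Cidea, Dio2, Elovl3, Plin5 and Ppargc1a, of which Adrb3 and Elovl3 could be tested only because they were higher after 2W. With assembled transcripts left out there were 3.

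Most of the 9 genes were highest at 3M. Of the 9 genes, 7 had both 3M libraries above both 2W libraries, as did 27.7% of all genes, 6 had both 3M libraries above both 6W libraries (25.9%), and 6 had both 3M libraries above the other 4 (15.7%). These comparisons share libraries, and all 3 counts include Elovl3 and the first also Adrb3, for which the filter itself asked for higher values after 2W. The counts also rest on assembled transcripts. From annotated ones, Ppargc1a in 3M replicate 2 (19.4 counts) was below 2W replicate 2 (20) and 6W replicate 2 (33.0). Annotated Adrb3 had 1.30 and 0 counts at 3M, beside 3 and 0 at 2W. The median log2 fold change of the 9 was 0.20 in 6W against 2W (all genes -0.01), 0.90 in 3M against 6W (all genes 0.02) and 1.56 in 3M against 2W (all genes -0.03). Differences between the 2 libraries of 1 age ran alongside. At 2W, 7 of 9 genes were higher in replicate 2, with a median gap of 0.53 (log2), and at 3M 8 of 9 were higher in replicate 1, with a median of replicate 2 minus replicate 1 of -0.55.

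**Figure D2:**
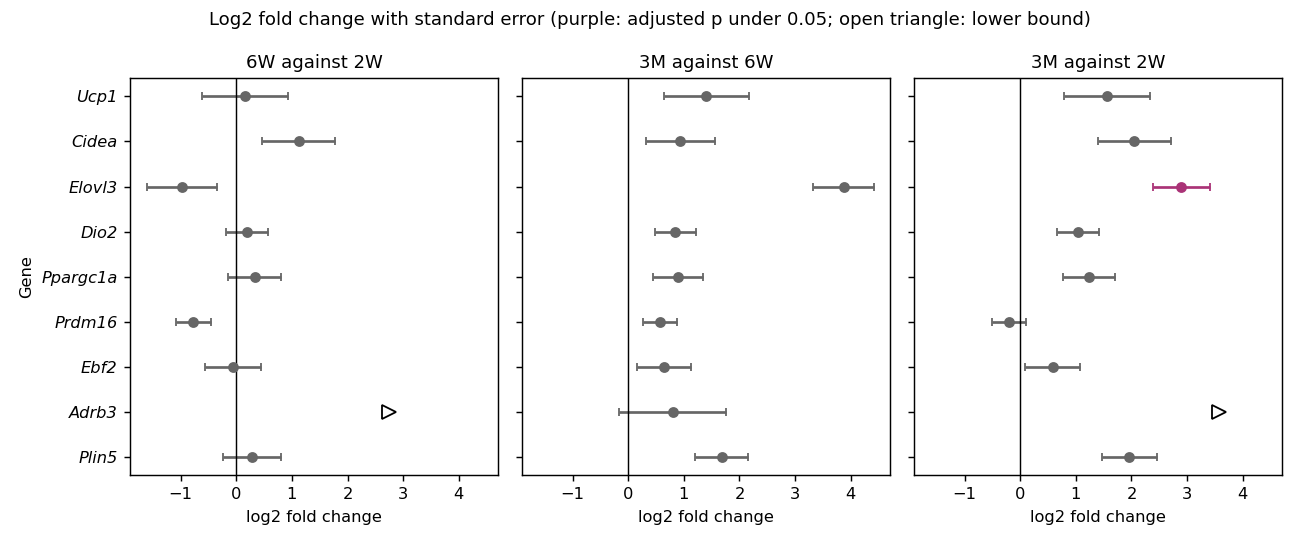
Log2 fold change (x axes) of the 9 genes (y axis) in the 3 comparisons, from edgeR, with bars of 1 standard error. Purple marks an adjusted p under 0.05, which Elovl3 reached in 3M against 2W. The open triangles for Adrb3, drawn as lower bounds, set the mean against 3 counts at 2W (2.75 and 3.58), a level that counting error can exceed.

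Per transcript length, Ucp1 and Cidea lay above the other 7 in every library at 6W and 3M. At 3M, Ucp1 averaged 32.8 ± 6.67 FPKM (fragments per kilobase per 1000000, SD, n = 2) and Cidea 15.5 ± 7.93, followed by Dio2 at 1.91 ± 0.721 and Prdm16 at 1.36 ± 0.276. Elovl3 (1.13 ± 0.0495), Plin5 (1.10 ± 0.424), Adrb3 (0.785 ± 0.856), Ebf2 (0.635 ± 0.0919) and Ppargc1a (0.465 ± 0.0919) came below. From Dio2 down to Ebf2 each gene's libraries overlapped those of the next. The order began with Ucp1 and Cidea at 2W (10.6 ± 11.6 and 3.41 ± 3.10 FPKM) and at 6W (12.5 ± 5.10 and 8.31 ± 1.71 FPKM) too, but there the libraries of both genes overlapped, and at 2W those of Cidea also overlapped those of Prdm16. Ucp1 made up 36.3% and 66.4% of the summed FPKM of the 9 at 2W, 45.5% and 54.8% at 6W, and 55.4% and 64.3% at 3M.

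Annotated and assembled transcripts gave these sums in unequal parts. Ucp1 and Dio2 have 1 annotated transcript each, ENSMUST00000034146 and ENSMUST00000082432, which carried all their counts. Elovl3, Ebf2 and Plin5 also had no counts from transcripts assembled by the authors (TCONS). Of the Prdm16 counts, in contrast, 92.6% came from 3 assembled transcripts, of which TCONS_00087803 held 463 of 905, and of the Adrb3 counts 79.4% came from 4. Annotated Prdm16 transcripts held 2.66 and 0 counts at 2W, 3.8 and 36.2 at 6W, and 15.7 and 8.17 at 3M, so that without assembled transcripts the order of the ages turned. Annotated Adrb3 transcripts held 3 and 0 counts, then 18.9 and 4.82, then 1.30 and 0, which is fewer at 3M than at 6W. For Cidea the assembled TCONS_00056320 had 0 and 1.09 counts at 2W, 67.8 and 92.2 at 6W, and 146 and 49.7 at 3M, while the annotated ENSMUST00000025404 had 24, 113, 94.2, 150, 258 and 201. Both forms were lowest in 2W replicate 1 and highest in 3M replicate 1. Estimated counts split reads between overlapping transcripts. For Plin5, the annotated ENSMUST00000019808 was listed at 0 in 6W replicate 2 and 3M replicate 2 while ENSMUST00000113072 took 15 and 37, and values of single transcripts are therefore less certain than gene sums.

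**Figure D3:**
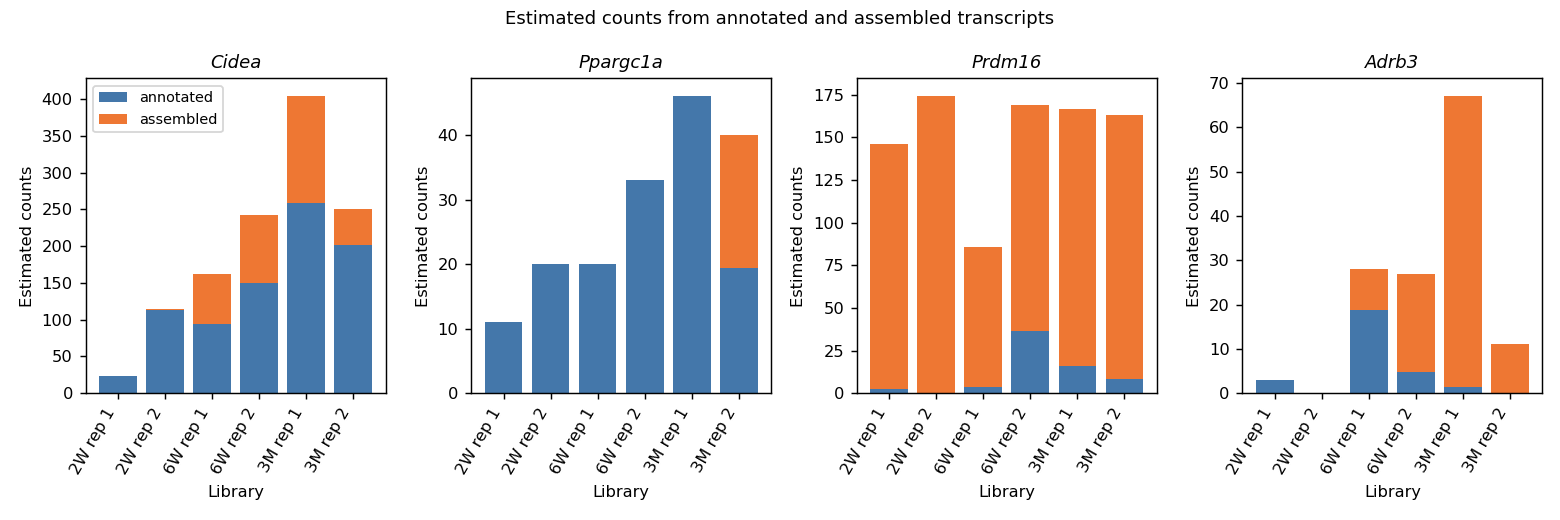
Estimated counts (y axes, from 0) of Cidea, Ppargc1a, Prdm16 and Adrb3 in each library (x axes), stacked from annotated (blue) and assembled (orange) transcripts. Prdm16 is 92.6% assembled over the 6 libraries, and the 3M counts of Adrb3 are nearly all assembled.

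Set against genes of all adipocytes, the level of the brown and beige fat genes differed between libraries. Adipoq, the adipocyte hormone adiponectin, had 2.97 and 3.74 CPM at 2W, 19.3 and 18.6 at 6W, and 51.2 and 23.2 at 3M. Its 2W libraries lay close together, unlike those of Ucp1, and it rose in 6W against 2W (log2 fold change 2.50, SE 0.40, edgeR adjusted p = 0.0407) and in 3M against 2W (3.46, SE 0.40, adjusted p = 0.0072). The CPM ratio of Ucp1 to Adipoq was 1.49 and 9.20 at 2W, 0.789 and 1.50 at 6W, and 1.30 and 2.07 at 3M. It was highest in 2W replicate 2, and the other 5 libraries lay between 0.789 and 2.07. The summed CPM of the 9 over that of 14 adipocyte genes was 0.101 and 0.206 at 2W, 0.0437 and 0.0669 at 6W, and 0.0475 and 0.0883 at 3M. Both 2W libraries were above all later ones, but Scd1 held 1803 of the 2766 CPM of the adipocyte sum in 3M replicate 1. With Scd1 left out, a choice made after seeing the data, the ratio was 0.125 and 0.251 at 2W, 0.0923 and 0.146 at 6W, and 0.136 and 0.162 at 3M, so that 2W replicate 1 lay among the later libraries. In 2W replicate 1, where the adipocyte sum was 219 CPM, Scd1 (42.1), Lpl (34.3) and Cd36 (28.4) each held more of it than Adipoq (2.97) or Plin1 (2.91). The ratio is therefore not a share of fat RNA. With 2 libraries against 2, an exact permutation test cannot give a p below 0.33, and these ratios are given as values without a test.

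**Figure D4:**
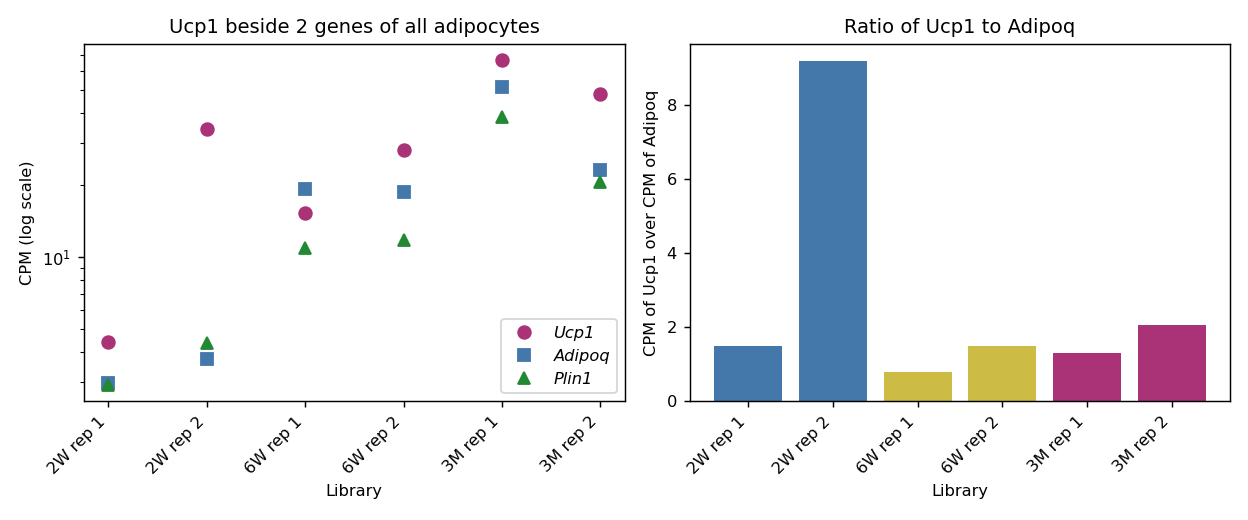
Left, CPM (log axis) of Ucp1, Adipoq and Plin1 in each library. Right, the ratio of the CPM of Ucp1 to that of Adipoq (y axis from 0) by library, coloured by age, which was 9.20 in 2W replicate 2 and at most 2.07 elsewhere.

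Genes of all adipocytes were followed as a list of 14. Of these, edgeR found 3 higher in 6W against 2W (Adipoq, Cfd and Cidec, 21.4% beside 1.74% of all genes, with 7 called by DESeq2), 0 in 3M against 6W (9 at an unadjusted p under 0.05, 4 by DESeq2) and 11 in 3M against 2W (78.6%, beside 11.0% of all genes and 1 of the 9 brown and beige fat genes), with a median log2 fold change of 1.84 in the last. By DESeq2 the last counts were 12 of 14 and 4 of 9. The difference between the lists was not tested. Scd1, which makes monounsaturated fatty acids, had 42.1 and 55.7 CPM at 2W, 465 and 470 at 6W, and 1803 and 429 at 3M. Of 12 white-biased genes, 9 were tested and 1 rose from 2W to 3M, Retn (resistin, log2 fold change 4.31, SE 0.70, edgeR adjusted p = 0.0157), with 0.632, 0.490, 4.41, 2.78, 17.6 and 5.06 CPM. The called share of 1 in 9, 11.1%, was that of the background, and the median log2 fold change of the 9 was 1.36. DESeq2 called 3 of the 9 (33.3%, beside 14.9% of all genes). The others of highest level, Trim14 (5.27 to 10.2 CPM) and Agt, the precursor of angiotensin (1.10 to 3.05 CPM), had log2 fold changes of 0.43 and -0.16 (edgeR adjusted p = 0.366 and 0.895). The library with the highest value was 3M replicate 1 for 7 of the 9 brown and beige fat genes, 14 of 14 adipocyte genes, 6 of 9 white-biased genes and 22.9% of all genes. Elovl3 was highest in 3M replicate 2 and Prdm16 in 2W replicate 2.

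Among 28 other genes typical of brown fat, 24 were tested. In 3M against 2W 3 rose and none fell (12.5%, close to the 11.0% of all genes called), the median log2 fold change being 0.52. These were Cox8b, a cytochrome oxidase subunit of brown fat and muscle (log2 fold change 2.72, SE 0.63, edgeR adjusted p = 0.0426), Otop1, a proton channel of brown fat (2.29, SE 0.56, adjusted p = 0.0489), and Acot11, a thioesterase induced by cold (1.50, SE 0.34, adjusted p = 0.0393). In 3M against 2W, DESeq2 called 5 of the 24 (Acot11, Cox8b, Kcnk3, Otop1 and Ppara, 20.8% beside 14.9% of all genes). By edgeR, 8 had an unadjusted p under 0.05 there (beside 27.3% of all genes). In 6W against 2W and 3M against 6W, neither edgeR (2 and 4 at an unadjusted p under 0.05) nor DESeq2 called any. Zic1 and Lhx8, which mark classical brown fat of the back, were at or under 0.0613 and 0.180 CPM in every library. The most abundant genes of the list, Letmd1 (32.0 to 38.0 CPM), Gk (19.9 to 30.8) and Pdk4 (2.53 to 40.8), are also made outside fat.

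Cpt1b, Pdk4 and Ppara, which serve the burning of fatty acids, had a gap at 2W in the same direction as Ucp1. Cpt1b, the muscle and brown fat form of the carnitine transferase that lets fatty acids into mitochondria, had 0.822 and 6.93 CPM at 2W, 3.44 and 4.46 at 6W, and 12.2 and 7.44 at 3M. Pdk4, which shifts mitochondria from glucose to fat, had 2.53 and 14.2, then 16.8 and 10.8, then 40.8 and 34.2 CPM. Ppara, the receptor that drives fatty acid oxidation, had 1.77 and 4.35, then 2.52 and 3.53, then 11.6 and 6.14 CPM. In each of these, 2W replicate 2 exceeded 2W replicate 1, by 2.49, 2.28 and 1.10 on the log2(CPM + 0.5) scale. Of the 24 tested genes of the list, 19 were higher in 2W replicate 2 (median gap 0.59), against 11 of 14 adipocyte genes (0.45), 3 of 9 white-biased genes (-0.24) and 7306 of all 14805 genes.

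Classical beige markers made a list of 10. Tbx1, Cited1, Hoxc9 and Shox2 stayed at or under 0.301 CPM and were not tested. In 3M against 2W, 3 of the 6 tested rose (50.0%, beside 11.0% of all genes), namely Tmem26 (log2 fold change 0.88, edgeR adjusted p = 0.0201), the fatty acid transporter Slc27a1 (0.83, adjusted p = 0.0217) and Irf4 (0.55, adjusted p = 0.0309). Irf4 is a lymphocyte transcription factor as well, and its 23.1 to 36.5 CPM, like the 14.4 to 18.3 CPM of Tnfrsf9, a T cell receptor of the TNF family, are not particular to fat. None of the 6 was called in 6W against 2W (2 at an unadjusted p under 0.05, 0 by DESeq2) or 3M against 6W (1 and 0).

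The signalling route to Ucp1 was measured through 22 genes, all tested and none called in any comparison by edgeR, with 0, 0 and 6 at an unadjusted p under 0.05 in 6W against 2W, 3M against 6W and 3M against 2W, and 0, 0 and 1 by DESeq2 (Cebpb). Of all genes, edgeR called 1.74%, 0.00675% and 11.0% in these comparisons. The most abundant, the G protein subunit Gnas (396 to 454 CPM), the factor Creb1 (277 to 417) and the corepressor Nrip1 (306 to 356), are made by most cells. Lipolysis and droplet genes made a list of 12. Of these, 2 rose in 6W against 2W (Cidec and Plin4, 16.7% beside 1.74% of all genes, with 6 called by DESeq2), 0 were called in 3M against 6W (6 at an unadjusted p under 0.05, 3 by DESeq2) and 8 rose in 3M against 2W (66.7%, beside 11.0% of all genes). The 8 included Plin1, the droplet coat of adipocytes (log2 fold change 3.02, SE 0.35, edgeR adjusted p = 0.0072), Plin4 (3.02, SE 0.29, adjusted p = 0.0057) and the lipases Pnpla2 (1.02, SE 0.14, adjusted p = 0.0112) and Lipe (1.42, SE 0.27, adjusted p = 0.0226). Cidec, Lipe and Plin1 are on the adipocyte list too.

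**Figure D5:**
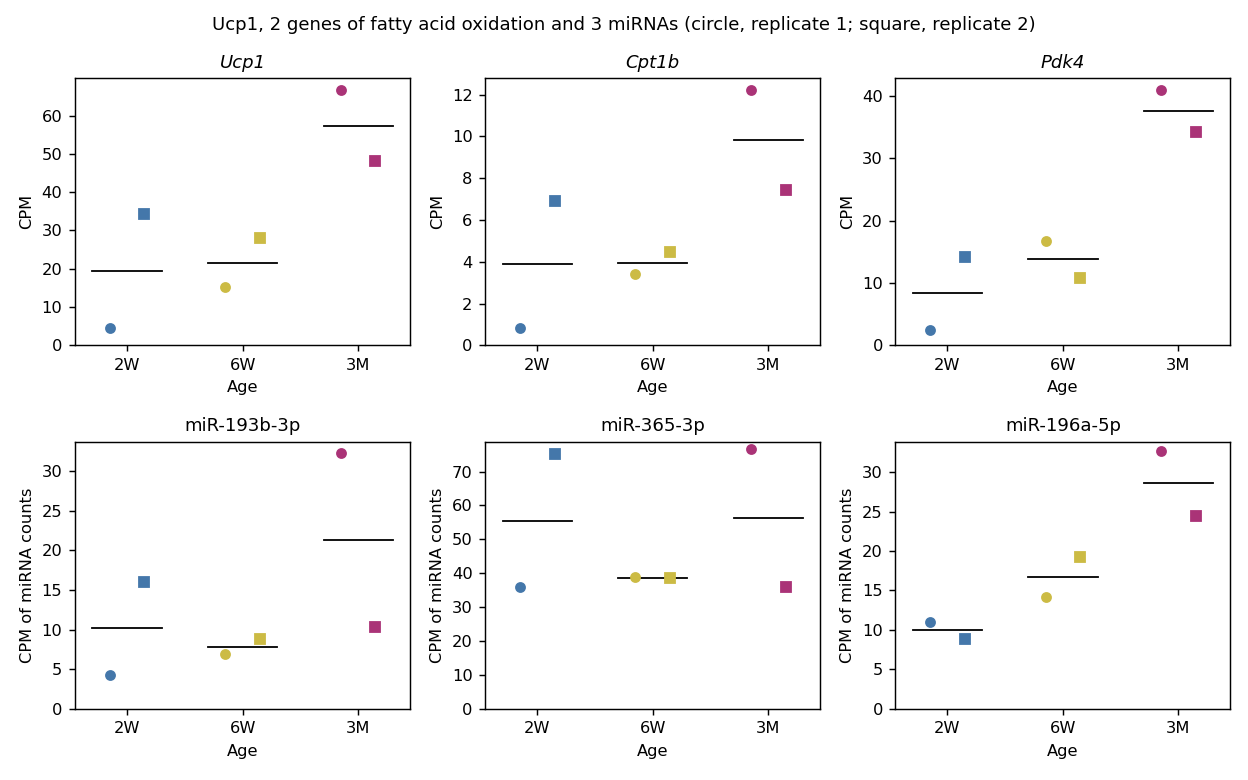
CPM (y axes, from 0) by age (x axes) of Ucp1, Cpt1b and Pdk4 in the RNA libraries and of miR-193b-3p, miR-365-3p and miR-196a-5p in the small RNA libraries. Circles are replicate 1, squares replicate 2 and black lines means. Except for miR-196a-5p, the 2W value of replicate 2 is above that of replicate 1.

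The genes whose pattern was most like that of Ucp1, by Pearson r of log2(CPM + 0.5) over the 6 libraries, were Cpt1b (0.990), Moxd1 (0.985), Slc41a2 (0.983), MFSD4 (0.980) and Cd59a (0.978). Closest to the mean z-score of the 9 were Cxadr (0.993), Acadl (0.992), Mccc2 (0.992), Decr1 (0.992) and Fitm2 (0.992). Acadl and Decr1 are enzymes of mitochondrial fatty acid oxidation, Mccc2 breaks down leucine in mitochondria, and Fitm2 helps form lipid droplets. Acadl had 61.1 and 80.8 CPM at 2W, 77.2 and 79.3 at 6W, and 129 and 90.7 at 3M. These genes were picked out of 14805 for their likeness, which is a description.

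Markers of other tissues that share genes with brown fat were read for the same libraries. The 18 skeletal muscle markers summed to 37.2 and 25.4 CPM at 2W, 28.7 and 31.6 at 6W, and 22.9 and 26.9 at 3M, with Acta1 and Ckm at or under 1.07 CPM, and Actn3, Mylpf and Myh4 the most abundant. The 8 heart markers summed to 12.3 and 11.2 CPM at 2W and to between 1.43 and 3.40 later, led at 2W by Ryr2, which fell in 3M against 2W (log2 fold change -3.53, SE 0.50, edgeR adjusted p = 0.0117). Nkx2-5 was at 0 in every library. The muscle sum was lower in 2W replicate 2 than in 2W replicate 1, as was Ryr2 (9.32 and 10.6 CPM), while the other heart markers summed to 1.90 and 1.71 CPM there. The liver list without Cyp2e1 summed to 200 and 186 CPM at 2W, 164 and 5.34 at 6W, and 239 and 4.61 at 3M. Cyp2e1, which adipocytes also make, rose in 3M against 2W (log2 fold change 1.88, SE 0.45, edgeR adjusted p = 0.0447). Alb led the list, at 0.838 CPM in 6W replicate 2 and 2.02 in 3M replicate 2 and at 123 CPM or more elsewhere. Ucp1 was highest in 3M replicate 1, where the liver sum was highest too, and next highest in 3M replicate 2, where that sum was lowest. The part of these markers in the brown and beige fat values was not tested.

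Small RNA gave a second readout from thymuses of these ages, and whether libraries of 1 number in both classes come from the same animal is not stated. Of 20 miRNAs listed for brown fat, for its inhibition or for muscle, all were tested. Sequences of the called miRNAs, of the miR-193 and miR-365 group and of the miR-27 pair are shown with the seed (bases 2 to 8 from the 5′ end) in capitals, from RefSeq.
miR-193b-3p: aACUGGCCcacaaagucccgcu
miR-193a-3p: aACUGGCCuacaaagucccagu
miR-365-3p: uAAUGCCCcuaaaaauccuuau
miR-455-3p: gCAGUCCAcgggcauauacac
miR-196a-5p: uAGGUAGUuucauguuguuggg
miR-34a-5p: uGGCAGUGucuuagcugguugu
miR-203-3p: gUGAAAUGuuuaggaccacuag
miR-182-5p: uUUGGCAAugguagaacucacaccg
miR-27a-3p: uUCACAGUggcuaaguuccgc
miR-27b-3p: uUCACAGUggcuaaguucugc
miR-206-3p: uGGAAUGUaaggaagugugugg
Among these, miR-193b-3p and miR-193a-3p share the seed ACUGGCC and have 19 of 22 bases in common, and miR-27a-3p and miR-27b-3p share UCACAGU and have 20 of 21. The other 7 each have a seed of their own here.

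The miR-193b and miR-365 genes lie next to each other on chromosome 16 (GRCm38.p6, chr16:13449570-13449591 and chr16:13453895-13453916, plus strand), a cluster enriched in brown fat, and miR-365-3p has another copy on chromosome 11. miR-193b-3p had 4.32 and 15.97 CPM of miRNA counts at 2W, 6.91 and 8.77 at 6W, and 32.3 and 10.4 at 3M. miR-365-3p had 35.9 and 75.1, then 38.8 and 38.6, then 76.7 and 36.0 CPM. Both were higher in 2W replicate 2 than in replicate 1, and in 3M replicate 1 than in replicate 2, and neither passed the test in 3M against 2W (log2 fold change 1.08, SE 0.59, and 0.03, SE 0.39, edgeR adjusted p = 0.196 and 0.967). Pearson r with Ucp1 over the 6 pairs of libraries of 1 number was 0.87 for miR-193b-3p and 0.56 for miR-365-3p, within a range over the 20 listed miRNAs from -0.81 for miR-455-5p to 0.89 for miR-378a-5p.

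Of the 20 miRNAs, edgeR called 3 in 6W against 2W (8.64% of all 822 tested), 5 in 3M against 2W (29.9%) and 0 in 3M against 6W (0.852%, with 6 of the 20 at an unadjusted p under 0.05 and 0 by DESeq2). In 3M against 2W the called share, 25.0%, was below that of all miRNAs. Among the 5 called, miR-196a-5p, which favours browning of white fat, had the largest rise (11.0 and 8.82 CPM at 2W, 14.2 and 19.3 at 6W, 32.6 and 24.5 at 3M, log2 fold change 1.52, SE 0.27, adjusted p = 0.0031). miR-193a-3p, which did not pass, had a larger log2 fold change of 1.95 (SE 0.77, edgeR adjusted p = 0.0814) with 5 and 6 counts in the 2W libraries against 37 and 7 in those of 3M. miR-203-3p, listed as brown-enriched, rose (0.95, SE 0.21, adjusted p = 0.0082), as did miR-455-3p (0.73, SE 0.22, adjusted p = 0.0303), whose other arm miR-455-5p had -0.66 (SE 0.36, adjusted p = 0.203), and miR-34a-5p, an inhibitor of browning (0.85, SE 0.22, adjusted p = 0.0170). miR-378a-3p, also listed as brown-enriched, had -0.06 (SE 0.20, edgeR adjusted p = 0.830). Which cells made these miRNAs was not tested. The muscle miRNA miR-206-3p fell (29.7 and 23.5 CPM at 2W, 7.01 and 10.96 at 6W, 5.05 and 5.35 at 3M, log2 fold change -2.35, SE 0.29, edgeR adjusted p = 0.0004773). In 6W against 2W, miR-203-3p (0.84, edgeR adjusted p = 0.0344) and miR-182-5p (0.75, adjusted p = 0.0360) rose and miR-206-3p fell (-1.57, adjusted p = 0.0112). The count of 3 came down to 1 without 2W replicate 2 or with the replicate block, and to 0 without 6W replicate 1 or without 6W replicate 2. The most abundant were miR-27b-3p (25964 to 37191 CPM), miR-378a-3p (2618 to 3389), miR-27a-3p (1922 to 3411), miR-30b-5p (1842 to 2356) and miR-182-5p (933 to 1695), none of which edgeR called in 3M against 2W, while DESeq2 called miR-27a-3p and miR-182-5p.

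Of 6300 circRNAs, none was assigned to any of the 9 genes. The circRNA counts per library were 10663 to 21914, and a count of 0 allows 3 counts, or 0.0137% to 0.0281% of the circRNA counts of a library, counting error only.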

How the data were processed

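Thymus RNA of male C57BL/6 mice was sequenced at 3 ages, with 2 libraries per age and RNA class. The mRNA table holds FPKM values and estimated counts of each transcript, as deposited by the authors. For miRNAs and circRNAs, the authors deposited whole counts of tags and of junctions. The submitters' processing notes list mm8 and Bowtie 0.12.2 with no role. The quantifier is not given in the sources used here. Transcripts were summed by gene symbol with case ignored, and sums were rounded. edgeR 4.0.16 in R 4.3.3 was used with TMM, filterByExpr by age and the quasi-likelihood F test on all 6 libraries, with age as the term. P-values were adjusted by Benjamini and Hochberg over all 14805 genes or 822 miRNAs. Standard errors come from the log2 fold change and F. The tests were tested on simulated data. FPKM was used to compare genes. DESeq2 1.42.0 was an alternative. Tables were handled in Python 3.11.15.

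The members and lists were chosen with earlier results of these data known. Named were all members, the 3 most abundant and the called genes of each list (at most 8), the 5 genes most like Ucp1 and most like the mean of the members, and the 5 most abundant and the called miRNAs. Moxd1, MFSD4 and other likeness genes follow from this rule. Some genes that it names on the cell type, adipocyte and lipolysis lists are given as counts. Ppara, Zic1, Lhx8 and other listed genes outside it were chosen after their values were seen. With 2 libraries per age, p-values set a difference between ages against the spread between these samples, which is estimated with help from the other genes. The lncRNA table was not used here.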

Additional observations from a re-analysis of the deposited data

How the results depend on the processing

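In 3M against 2W, DESeq2 called 4 of the 9 genes, the fit with no filter 4 and scaling by total counts 2, in place of 1. In 6W against 2W and 3M against 6W, all of these called 0. With assembled transcripts left out, the study threshold was passed by 0 genes in 6W against 2W and 3 in 3M against 2W, in place of 1 and 6. The log2 fold changes of Prdm16 were then 2.23, -0.43 and 1.80 in 6W against 2W, 3M against 6W and 3M against 2W, the first and last set against 3 counts at 2W. Ebf2 in 6W against 2W was 0.0094 under scaling by total counts. With no filter, 1 miRNA was called in 3M against 6W and 8 in 3M against 2W. The ratio of the 9 genes to the adipocyte genes, 0.153 at 2W, 0.0553 at 6W and 0.0679 at 3M on average, was 0.168, 0.0789 and 0.103 from FPKM, 0.139, 0.0905 and 0.122 without assembled transcripts, and 0.188, 0.119 and 0.149 without Scd1, an alternative chosen after seeing the data. The cause was not tested.

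With each library left out in turn, where the lone sample of an age is assumed to vary like the other groups, the genes called in 3M against 2W were 0 to 1, and those past the study threshold 0 to 2 in 6W against 2W, 1 to 4 in 3M against 6W and 2 to 6 in 3M against 2W. The miRNAs called were 0 to 4 in 6W against 2W and 3 to 9 in 3M against 2W. In 6W against 2W the log2 fold change ranged from -0.67 to 2.32 for Ucp1, -0.16 to 0.71 for Dio2, -0.013 to 0.83 for Ppargc1a, -0.54 to 0.55 for Ebf2 and -0.035 to 0.72 for Plin5, and in 3M against 6W from -1.35 to 1.60 for Adrb3. It ranged from 1.34 to 3.53 for Cidea and, set against 3 counts at 2W, from 1.38 to 4.41 for Adrb3 in 3M against 2W.

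Samples of 1 number did not deviate together at every pair of ages. The correlation of deviations was -0.06, -0.18 and 0.35 for genes between 2W and 6W, 2W and 3M, and 6W and 3M, and 0.22, -0.15 and -0.07 for miRNAs. The numbers were therefore not taken as pairs. With the replicate block, 0, 0 and 1 of the 9 genes were called in 6W against 2W, 3M against 6W and 3M against 2W, and 1 miRNA in 6W against 2W. Differences near 3 counts, as for Adrb3 and Elovl3 at 2W, were at the limit of this depth.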
